A study of Caenorhabditis elegans with 2 samples.

Results

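The translation initiation and elongation factor genes were examined for peaks of MEP-1, a zinc finger protein, in whole L1 larvae of Caenorhabditis elegans. They were taken by name as the protein-coding genes of the Ensembl WBcel235 annotation whose symbols start with eif-, ife-, ifet-, ifg-, iff-, eef- or eftu-, and 41 of 19973 protein-coding genes on the nuclear chromosomes met this rule. The data are peak lists from chromatin immunoprecipitation with sequencing of eGFP-tagged MEP-1 in the strain OP102, which has the genotype unc-119(tm4063) III with the insertion wgIs102, labelled as targeting mep-1. There was 1 group of 2 biological replicates, both from L1 larvae of pooled sex, and no second genotype or stage to compare them with. All cells of the animal were pooled in each library, so a peak cannot be given to a cell type, and fewer cells with a peak and less binding per cell cannot be told apart.

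Initiation factors bring the small ribosomal subunit, the initiator tRNA and the capped mRNA together, and elongation factors then deliver the aminoacyl-tRNAs and move the ribosome along the mRNA. Most of these factors serve every growing cell, and C. elegans has several genes for the cap-binding protein eIF4E and for eIF5A. MEP-1 is known for acting with the chromatin remodeller LET-418 to keep germline genes silent in somatic cells. Of the names taken, eif-4A3 and eftu-2 belong to proteins whose human homologues act in the exon junction complex and in the spliceosome, so they are kept under the naming rule but described apart.

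The DNA under 6 of the summits is shown, for 5 of the strongest members and for ife-4, the only member with the longest word searched. The 5 are not the first 5 by signal, since eif-3.C and eef-2 were stronger than eef-1A.2 and are not shown. Each line gives 101 bases centred on the summit, read from the RefSeq WBcel235 assembly on the strand of the named gene. Capitals mark the words GACGCA or ACGCAG or CGTCTC on either strand. These words had already been found at MEP-1 summits in the same data, so they describe the members and support nothing further. The lines shown hold a word more often than the members do, since 21 of the 30 members with a peak had none.
ifet-1 (chrIII:4475604-4475704, minus strand): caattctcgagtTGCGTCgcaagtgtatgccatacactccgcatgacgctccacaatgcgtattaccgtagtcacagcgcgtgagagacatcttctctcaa
eef-1A.1 (chrIII:6972049-6972149, minus strand): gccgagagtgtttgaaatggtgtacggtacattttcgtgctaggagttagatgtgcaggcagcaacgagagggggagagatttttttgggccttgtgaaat
iff-2 (chrII:8561405-8561505, minus strand): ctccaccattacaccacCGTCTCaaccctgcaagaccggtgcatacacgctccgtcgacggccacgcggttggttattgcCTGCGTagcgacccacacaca
eef-1G (chrV:10965640-10965740, plus strand): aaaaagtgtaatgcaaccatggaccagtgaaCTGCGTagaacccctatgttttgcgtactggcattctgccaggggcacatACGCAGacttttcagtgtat
eef-1A.2 (chrX:7823194-7823294, plus strand): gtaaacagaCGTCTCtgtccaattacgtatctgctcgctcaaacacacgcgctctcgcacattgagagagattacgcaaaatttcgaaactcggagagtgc
ife-4 (chrX:1103875-1103975, plus strand): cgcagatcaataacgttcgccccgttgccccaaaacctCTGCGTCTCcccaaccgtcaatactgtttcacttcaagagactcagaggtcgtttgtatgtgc

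At least 1 of the 3 words lay within 50 bp of the summit at 9 of 30 members with a peak (30%), against 834 of all 2837 summits in promoter windows (29.4%). The same stretch of 101 bases centred 200 bp upstream of the outermost 5′ end held a word at 1358 of 19973 protein-coding genes (6.80%). Beyond the lines above, words were found at eif-3.C, eif-3.G, eif-2A and eif-2Balpha. In stretches 300 bp to either side of the member summits, 1 of 60 held a word. The 3 words overlap one another in the 9-base word GAGACGCAG, which lay at 1 member summit (3.33%), that of ife-4, against 274 of all promoter summits (9.66%) and 197 of the stretches upstream of all genes (0.986%). The eef-1G stretch held ACGCAG on each strand, and the iff-2 stretch held CGTCTC and, further along, the reverse complement of ACGCAG. The median GC share was 46.5% at the member summits, against 45.5% at all promoter summits. It was 33.7% in the flanks of the member summits. The other 21 members with a peak had none of the words within 50 bp, among them eef-1A.1, eef-1B.1 and eif-3.B, and their signals ran from 54.2 to 512.

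A peak was counted for a gene when the summit of a peak in the authors' optimal list lay from 1000 bp upstream to 200 bp downstream of an annotated 5′ end. By this count 30 of 41 members (73.2%) had a promoter peak, against 3491 of 19973 protein-coding genes (17.5%). The strongest peak of each member had a median signal of 177, against 106 for the strongest peaks of all genes with one. Signal is the authors' own value per peak and was used here only to order peaks and to give medians over genes. In the optimal list it ran from 45.3 to 919. Among the 30 members with a peak 18 ranked in the first 1000 of the 4904 optimal peaks (60.0%), against 31.1% of all genes with a peak, and 6 ranked in the first 100 (20.0%, against 3.41%). No test was made of these shares. Some of the peaks are counted for more than 1 gene, so neighbouring genes do not give independent counts.

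**Figure D1:**
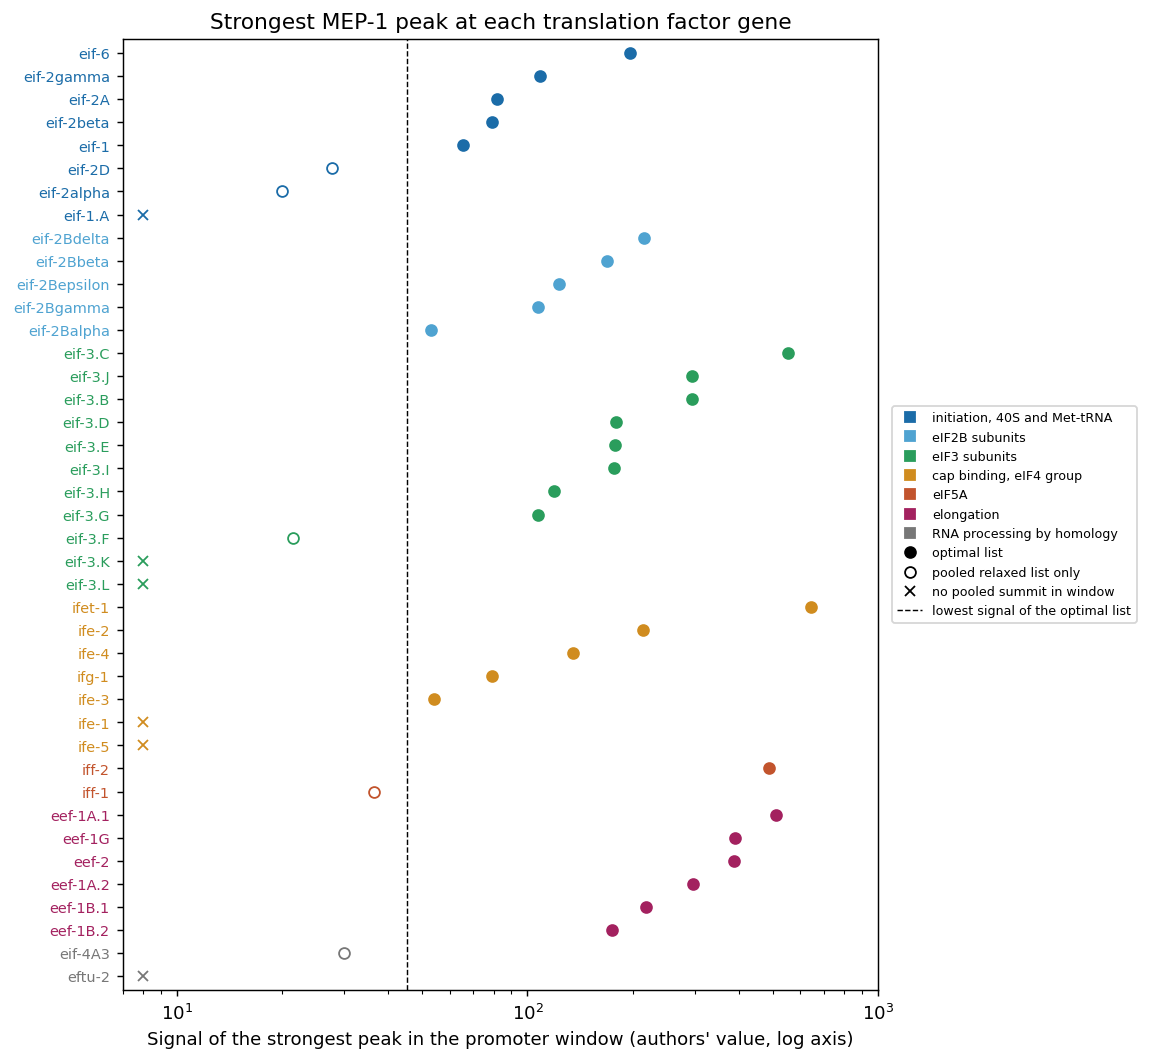
Signal of the strongest peak in the promoter window of each of the 41 genes on a log axis, grouped and coloured by role. Filled circles are peaks of the optimal list (30 genes), open circles are peaks of the pooled relaxed list only (5 genes), crosses at the left edge have no pooled summit (6 genes), and the dashed line marks the lowest optimal signal of 45.3. All 6 elongation factor genes lie at 174 or above.

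All 6 elongation factor genes had a promoter peak, with a median signal of 343. eef-1A.1 (WBGene00001168), which encodes eEF1A, the factor that carries aminoacyl-tRNAs to the ribosome, had the strongest of them at chrIII:6971929-6972254, with a signal of 512 and rank 33. It ranked 32 in replicate 1 and 34 in replicate 2. The second eEF1A gene, eef-1A.2, had a peak at chrX:7823074-7823402 with a signal of 297 and rank 195, ranked 211 and 173 in replicates 1 and 2. Both eEF1A summits lay well upstream of the gene, at 387 and 410 bp from the nearest 5′ end. The other 4 lay closer. The eef-2 summit was 6 bp upstream, in front of the gene for the translocation factor eEF2. That peak, at chrI:9163387-9163669, had a signal of 388 and rank 90, and ranked 111 and 59 in replicates 1 and 2. The summits at eef-1G and eef-1B.1, whose products belong to the complex that reloads eEF1A with GTP, were 29 and 6 bp upstream. The eef-1G peak, at chrV:10965553-10965823, had a signal of 391 and rank 85, and ranked 85 and 94 in the replicates. The eef-1B.1 peak, at chrIII:7973270-7973493, had a signal of 218 and rank 457, and ranked 527 and 396. eef-1B.2, a further gene of that complex, had the weakest peak of the group, with a signal of 174 at 159 bp. Every elongation factor peak ranked in the first 1000 of both replicates, the lowest being eef-1B.2 at 866 in replicate 1 and 695 in replicate 2.

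The eIF3 genes encode the subunits of the large scaffold on the small ribosomal subunit, and 8 of 11 had a promoter peak, with a median signal of 178. eif-3.C (WBGene00001226) stood first, with a peak at chrI:9979753-9980044, a signal of 554 and rank 23, 242 bp upstream of the gene. Its ranks were 21 in replicate 1 and 33 in replicate 2. eif-3.J and eif-3.B had nearly the same signal, 295.3 and 295.2, but differed in position. The eif-3.B peak was at chrII:14794965-14795287, rank 202, with its summit 249 bp upstream, between genes. The eif-3.J peak was at chrI:13434426-13434677, rank 201, with its summit 948 bp upstream, in an exon of slc-25A46, in its 3′ UTR, near the far edge of the window. Signals of 179, 177 and 176 were found at eif-3.D, eif-3.E and eif-3.I, and of 119 and 107 at eif-3.H and eif-3.G. Peaks were absent from the optimal list at eif-3.F, eif-3.K and eif-3.L. The subunits that go under other names in this annotation, such as egl-45, are not covered by the naming rule.

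The eIF2B genes encode the exchange factor that reloads eIF2 with GTP, and all 5 had a promoter peak. Their signals were 215 at eif-2Bdelta, 169 at eif-2Bbeta, 123 at eif-2Bepsilon, 107 at eif-2Bgamma and 53.1 at eif-2Balpha. The eif-2Balpha peak was the weakest of all member peaks, at rank 4143 of 4904. eif-2Bgamma was the only member with 2 optimal summits. Its stronger one lay 957 bp upstream, in an intron of C15F1.5, and the other, with a signal of 97.0, lay 152 bp upstream.

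Of the 8 genes for factors that set up the small subunit with the initiator tRNA or keep the subunits apart, 5 had a peak, with a median signal of 81.9. eif-6, whose product keeps the large subunit from joining early, had the strongest, with a signal of 196 and rank 583. For eIF2, which carries the initiator tRNA, the gamma subunit gene had a signal of 108 and the beta subunit gene 79.0, while eif-2alpha had no summit of the optimal list in its window. The eif-2beta summit lay in an intron of the gene, 200 bp upstream of the inner of its 2 annotated 5′ ends, and was not counted when only the outermost 5′ end was used. eif-2A had a signal of 81.9. eif-1, for a factor that guards start codon choice, had a signal of 65.6, with the summit 509 bp upstream and in an exon of vps-24, in its 5′ UTR. eif-1.A and eif-2D had none.

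The cap-binding group and the eIF5A genes differed from gene to gene. ifet-1, the homologue of the eIF4E transporter, had the strongest peak of all members at chrIII:4475520-4475791, with a signal of 645 and rank 10, ranked 11 and 7 in replicates 1 and 2. That summit lay 504 bp from the 5′ end of ifet-1 and 264 bp from that of the ribosomal protein gene rps-1, so it cannot be given to 1 of them. ifg-1, the gene for the scaffold eIF4G, had a signal of 79.0, with a summit 624 bp upstream that was 18 bp downstream of the 5′ end of the neighbouring M110.3. Among the eIF4E genes ife-2 had a signal of 213 and ife-4 had 135. ife-3 had 54.2, close to the end of the list at rank 4048. ife-1 and ife-5 had no summit of any rank in their windows in the pooled list or in either replicate. The eIF5A genes also differed from each other. iff-2 had a peak at chrII:8561287-8561632 with a signal of 488 and rank 38, ranked 49 and 21 in the replicates. iff-1 had no optimal peak, and its pooled peak of 36.5 at rank 6219 was the highest-signal one of the members outside the optimal list.

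The 11 members without an optimal summit in the window were ife-1, ife-5, iff-1, eif-1.A, eif-2alpha, eif-2D, eif-3.F, eif-3.K, eif-3.L, eif-4A3 and eftu-2. For 5 of them the pooled relaxed list held a weaker summit, with signals of 36.5 at iff-1, 30.02 at eif-4A3, 27.7 at eif-2D, 21.5 at eif-3.F and 20.0 at eif-2alpha. The next 1 inside the list was eif-2Balpha at 53.1, and the list ended at 45.3. The other 6 had no pooled summit in the window. At eif-1.A replicate 2 alone held a call, at rank 2695 with the summit 380 bp upstream, and replicate 1 held none. The remaining 5, which were ife-1, ife-5, eif-3.K, eif-3.L and eftu-2, had no call in the pooled list or either replicate. The nearest optimal summit of the 11 genes was 1780 to 29442 bp away, with a median of 16094 bp. The nearest of these was at eif-2alpha, where a peak with a signal of 159 lay 1780 bp upstream, in the promoter window of the adjacent phb-1 on the same strand.

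The summits of the 30 members all lay upstream of the nearest 5′ end of the gene, against 93.6% of those of all genes with a peak. The median distance was 245.5 bp, and the middle 50% lay between 147 and 372.5 bp. Over all genes with a peak the median was 221 bp upstream. Measured from the start codon the members' median was 263 bp. The anchors gave unlike distances at iff-2, whose summit lay 88 bp from the nearest 5′ end and 500 bp from the start codon. They also differed where the summit lay close to the 5′ end. From the start codon the distance was 129 bp in place of 6 at eef-2. It was 122 in place of 6 at eef-1B.1, and 135 in place of 29 at eef-1G. By position 25 member summits (83.3%) lay between protein-coding genes, against 75.6% of all promoter summits, 3 lay in exons of a neighbour and 2 in introns, 1 of them in an intron of the member eif-2beta itself. The peaks were 89 to 350 bp wide, with a median of 261.5 bp, against 350 bp for all promoter peaks. A width of exactly 350 bp recurred among the member peaks, each time at a signal below the members' median of 177. The widths therefore do not measure how sharply MEP-1 was bound.

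**Figure D2:**
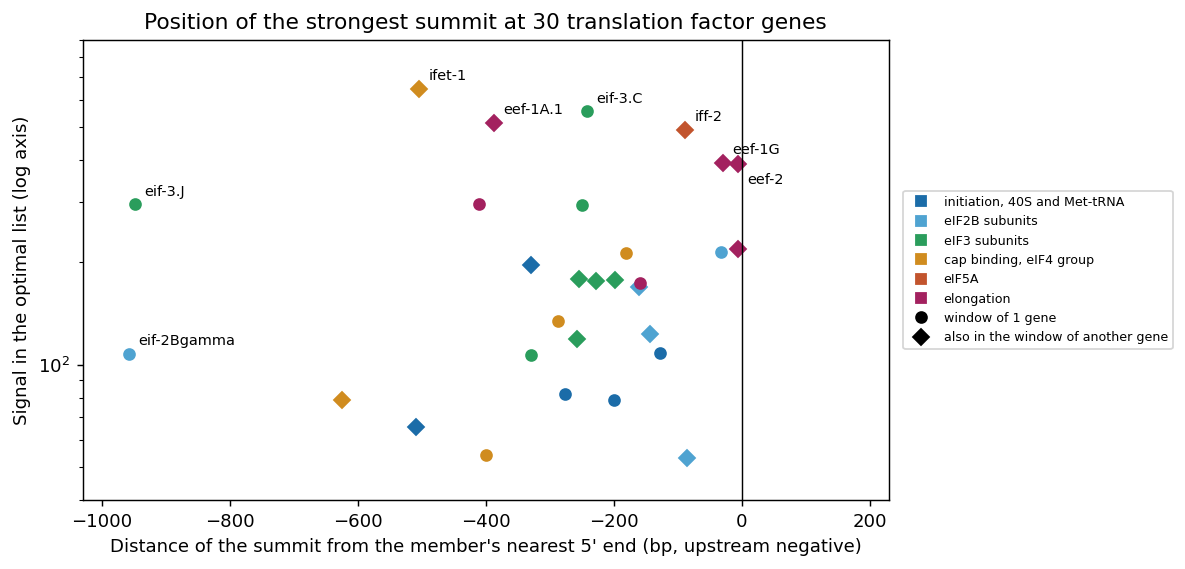
Distance of the strongest summit from the nearest 5′ end of the gene in bp, with upstream negative, against its signal in the optimal list on a log axis, for the 30 genes with a peak, coloured by role. Diamonds are summits that also lie in the window of another protein-coding gene (16 genes). Most summits lie within 500 bp (25 of 30), and eif-3.J and eif-2Bgamma lie near the far edge of the window.

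At 16 of the 30 members (53.3%) the strongest summit also lay in the window of another protein-coding gene, against 48.0% of all genes with a peak. In each of the 16 the other gene was divergent, that is, transcribed away from the member on the opposite strand. No share of divergent genes over all shared summits is at hand. The window is long upstream and short downstream, so a summit upstream of a member falls more readily in the window of a divergent gene. The count is therefore not a trait of these genes. With a window of 500 bp upstream 10 members had a shared summit, of the 26 that then had a peak. Of the 6 elongation factor genes 4 had a shared summit. The eef-1A.1 summit lay 387 bp from that gene and 154 bp from rfc-4, for a subunit of the DNA replication clamp loader. The eef-1G summit lay 29 bp from that gene and 151 bp from ctf-4, and the eef-2 summit lay 6 bp from eef-2 and 259 bp from clsp-1. The homologues of ctf-4 and clsp-1 act at replication forks. The eef-1B.1 summit lay 6 bp from that gene and 325 bp from aco-2, for mitochondrial aconitase. These neighbours were named after their positions were seen.

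The strongest summit was nearest to the gene's own 5′ end at 22 of 30 members, much as at 2615 of all 3491 genes with a peak. In 8 of the 16 shared cases the summit was nearer to the neighbour than to the member. Besides eef-1A.1 and ifet-1 these were eif-1, ifg-1, eif-2Bbeta, eif-2Bepsilon, eif-3.D and eif-3.H. At eif-2Bepsilon the summit lay 14 bp from piga-1 and 143 bp from the member, and at eif-3.D it lay 59 bp from R08D7.4 and 255 bp from the member. Summits nearly midway were found at eif-6 and eif-3.I. The eif-6 summit lay 329 bp from that gene and 337 bp from the proteasome gene pbs-2, and the eif-3.I summit lay 227 bp from that gene and 243 bp from abtm-1. With each summit given only to the nearest 5′ end, 22 of 41 members kept a peak, against 13.3% of all protein-coding genes. The 14 peaks not shared with another protein-coding gene included eif-3.C, eef-1A.2, eif-3.B and ife-2. No share over all promoter summits is at hand for non-coding genes, so their number at the members is a description only. Non-coding genes lay within 200 bp of the strongest summit at 5 of the 30 members. These were F56F3.10 and F56F3.11 at ifet-1, cel-mir-5549 at eef-1A.1, R03G5.8 at eef-1A.2, F54H12.9 at eef-1B.1, and sup-39, mir-1831 and C15F1.14 at eif-2Bgamma. A divergent neighbour was not found only at members with a peak. It was the upstream neighbour of 17 of 30 members with a peak and of 6 of 11 without one, against 64.6% and 42.3% of all genes with and without a peak. Some members without a peak started close behind a gene on the same strand. The gap was 0 bp at ife-1, 65 at ife-5, 116 at eif-3.F and 133 at eif-2alpha, but 794 at eif-3.K. Among members with a peak the shortest such gap was 252 bp, at eif-2Bgamma. No such gaps are at hand for all genes with and without a peak. The gaps were also picked out after the peaks were seen, so they describe these members only. Windows behind short gaps lie largely over the neighbour. A link between gap and peak was not tested.

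The replicates were set side by side by the rank of the peak that overlapped each member's strongest optimal peak. All 30 had an overlapping call in both replicates, and 28 (93.3%) were among the first 4904 peaks of each, against 84.2% for all genes with a peak. The 2 others were ife-3, ranked 3441 in replicate 1 and 8162 in replicate 2, and eif-2Balpha, ranked 3771 and 5718. The optimal list was derived from these replicates, so a high share follows in part from how the list was made. Ranks in one replicate followed those in the other, with Spearman's rho of 0.915 over the 30 member peaks and 0.809 over 2813 promoter peaks matched in both. These are descriptions over peaks of the same 2 libraries. The larger of the 2 ranks was a median of 1.53 times the smaller, against 1.42 for all promoter peaks, and it was over 2 times the smaller at 7 members (23.3%, against 19.7%). eif-3.J differed most, with rank 146 in replicate 1 and 548 in replicate 2, a ratio of 3.75. ifg-1 ranked 3902 and 1397, eif-3.G 2366 and 928, eif-3.D 962 and 405, and eif-3.B 274 and 117, all better in replicate 2. No member reached a ratio of 5.

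**Figure D3:**
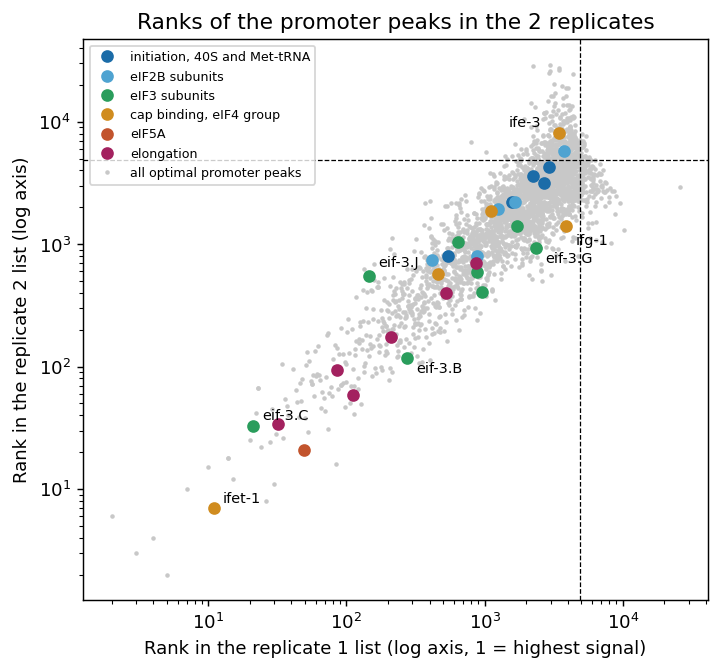
Rank of the overlapping peak in replicate 1 (horizontal axis) and in replicate 2 (vertical axis), both on log axes with 1 as the highest signal, for the strongest peak of the 30 genes (coloured by role) and for all 2813 promoter peaks matched in both replicates (grey). Dashed lines mark rank 4904, the length of the optimal list. The coloured points run along the grey ones, and ife-3 and eif-2Balpha lie above the horizontal line at that rank.

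Other genes of the translation pathway that the naming rule leaves out were looked up as a list of 28 symbols, 26 of which matched a gene. A promoter peak was found at 18 of 26 (69.2%), against 17.5% of all protein-coding genes, with a median signal of 112. The strongest was in front of drr-2, the homologue of eIF4H, with a signal of 489 and rank 37, 162 bp upstream and also in the window of set-16. It was followed by larp-1 (signal 422), for an RNA-binding protein, and abcf-2 (signal 237). The larp-1 summit lay 660 bp upstream and also in the window of wip-1. The abcf-2 summit lay 871 bp upstream and also in the windows of ant-1.1 and T27E9.2. Of the 18 peaks 12 (66.7%) were shared in this way, against 48.0% for all genes with a peak, so they cannot be given to 1 gene. inf-1, the gene for the helicase eIF4A, had a signal of 109, and iffb-1, for eIF5B, had 84.2. The release factor genes erfa-1 and erfa-3 had 117 and 77.2. Of the mitochondrial translation factors gfm-1, tufm-1 and tsfm-1 had 111, 99.3 and 48.4. Peaks at the eIF2 alpha kinase genes differed, with 117 at pek-1 and no optimal summit at gcn-2. The eEF2 kinase gene efk-1 had 48.3. The poly(A)-binding protein gene pab-2 had 114.7, while pab-1 had no optimal summit, nor did the cap-binding complex genes ncbp-1 and ncbp-2, the growth regulators let-363, daf-15 and rsks-1, or mxt-1.

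The share of members with a peak lay between that of the cytosolic ribosomal protein genes and those of the other lists. The share was 73.2% for the members, and it was 85.2% for 81 cytosolic ribosomal protein genes, 50% for 32 aminoacyl-tRNA synthetase genes and 48.6% for 70 mitochondrial ribosomal protein genes. The median signal of genes with a peak placed the members likewise, at 177 for the members, 210 for cytosolic ribosomal protein genes, 127 for mitochondrial ribosomal protein genes and 78.0 for aminoacyl-tRNA synthetase genes. The median distance upstream was 245.5 bp for the members, 279 bp for cytosolic ribosomal protein genes, 208.5 bp for synthetase genes and 173 bp for mitochondrial ribosomal protein genes. The differences between lists were not tested. Within the members the spread was wide, from 53.1 to 645, so single members lay above and below the median of every list.

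**Figure D4:**
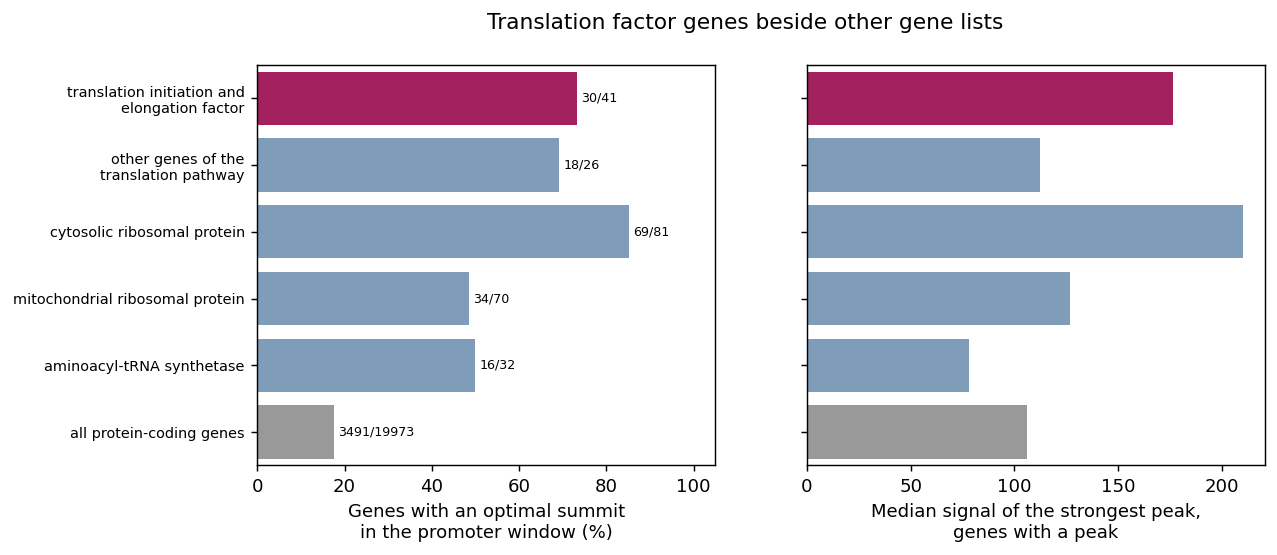
Share of genes with an optimal summit in the promoter window (left, with the number of genes) and median signal of the strongest peak of genes with one (right), for the 41 genes examined (top), 4 other gene lists and all protein-coding genes (bottom). The share is 73.2% for the genes examined and 17.5% for all protein-coding genes.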

How the data were processed

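Per the labels, 2 replicate ChIP libraries of 150 to 350 bp fragments were sequenced. The deposited file lists name relaxed peak lists for each replicate and for both pooled, and an optimal list thresholded by the irreproducible discovery rate (IDR). For the aligner, the peak caller and the IDR threshold, nothing is stated (not given in the sources used here). The signal of each peak is the authors' deposited value. The optimal and pooled lists give the same value for the same peak, such as 512 at eef-1A.1. The replicate lists give other values, 354 and 160 there, so the replicates were compared by rank only. The files hold no read counts, so depth is unknown and the values carry no counting interval. The optimal list was checked to be the 4904 highest-signal peaks of the 30000 in the pooled list. The ce10 lists were not used, since coordinates were not converted.

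Windows, distances and overlaps (at least 1 base) were computed from Ensembl release 115 gene models on ce11 (WBcel235), counted from 1. Non-coding genes other than piRNA genes were looked up within 200 bp. All 41 members matched the RefSeq table by symbol, 30 with the same start and end. The symbols etf-1 and gfm-2 matched no gene. Members and lists were chosen with earlier results of these data known, and every member is named. Positions and both replicate ranks are given for the 10 highest-signal members, and would be for any that the replicates ranked over 5 times apart, of which none was found. No statistical test was run. Window assignment was tested on simulated data. The tools were matplotlib 3.10.9, scipy 1.17.1, pandas 2.3.3 and numpy 2.4.6, run under Python 3.11.15. Alternatives covered the window, the 5′ ends, the peak threshold, the assignment of summits, each replicate alone and the overlap rule.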

Additional observations from a re-analysis of the deposited data

How the results depend on the processing

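The number of members with a promoter peak was 30 of 41 and ran from 22, with each summit given only to the nearest 5′ end (13.3% of all protein-coding genes), to 35 in the pooled relaxed list, where 42.3% of all protein-coding genes had a summit. It was 26 with 500 bp upstream (14.3% of all genes), 31 with 2000 bp (22.3%), 29 with outermost 5′ ends (16.3%), 24 with the higher-signal 50% of peaks (11.4%), 29 with replicate 2 alone (18.0%) and 30 with replicate 1 alone (17.4%). With replicate 2 alone eif-2Balpha and ife-3 were no longer counted and eif-1.A was gained. Replicate 2 did hold summits in the windows of eif-2Balpha and ife-3. They ranked 5718 and 8162, beyond the first 4904 peaks, so these genes were lost by rank and not for want of a call. The median distance was -263 bp from the start codon and -234.5 bp among the higher-signal 50%, against -245.5 bp. Shared summits numbered 10 at the 26 members with a peak with 500 bp upstream, against 16 at 30. They numbered 13 at 24 members with the higher-signal 50% of peaks, 16 at 29 with outermost 5′ ends and 20 at 31 with 2000 bp. With a reciprocal overlap of 50%, 19 members in place of 28 were among the first peaks of both replicates. That rule sets the overlap against the longer of the 2 peaks. Whether optimal or replicate, a peak less than 50% as wide as the other therefore failed it at any rank. The 89 bp optimal peak at eif-3.H failed so, though its summits lay 265 and 256 bp upstream in replicates 1 and 2. At eef-1A.2 the replicate 2 peak, at chrX:7823222-7823361, was the narrower, against an optimal peak 329 bp wide. The lower number thus does not measure how well the replicates match. The median percentile of the member peaks among all promoter peaks was 79.4 and ran from 76.4 to 80.2 with 1 replicate alone. No paired analysis was possible because there is only 1 group.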
